A study of Ovis aries with 6 samples.

Results

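Contractile and intermediate filament transcripts were compared between 2 kinds of cultured sheep (Ovis aries) cells, labelled as epidermal stem cells of the skin and epithelial cells of the cornea. The members were the gene probes whose name or description in the array files names vimentin (VIM), desmin (DES), myosin light chain kinase (MYLK), calponin 1 (CNN1), tropomyosin 1 (TPM1) or MYL11. Probes described as a tropomyosin, calponin, transgelin or smooth muscle actin were added. This gave 9 genes read by 11 probes, of 14228 gene names and 15008 gene probes on the array. MYLK and VIM had 2 probes each, CNN3, TPM3 and TAGLN2 entered by their descriptions, and MYL11 carries its older name MYLPF in the files. TPM2, TPM4, TAGLN and ACTA2 were not analysed here.

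Each kind of cell was represented by 3 samples, which the series' text calls cell lines, and each sample by 1 single-colour (Cy3) Agilent array. Per the labels, one group comes from skin and the other from cornea, and the RNA was taken from adherent cells detached with trypsin. Neither group carries a treatment or genotype in the labels, and breed, age and passage are not given in the sources used here. Nothing says whether the lines came from separate animals, so the spread behind the p-values is that of these samples and could be technical.

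In contraction, myosin motors pull on actin filaments after the regulatory light chain of myosin is phosphorylated, which in smooth muscle and non-muscle cells is the work of MYLK under the control of calcium and calmodulin. Tropomyosins coil along actin filaments, while calponins and transgelins bind them, and CNN1 is widely used as a marker of smooth muscle and myofibroblasts. Vimentin and desmin form intermediate filaments, vimentin typically in mesenchymal cells and desmin in muscle, whereas epithelial cells are known for keratins.

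The values below are normalized log2 intensities, the log2 of the scanner's processed signal minus the 75th percentile of its array. A value of 0 is therefore the array's 75th percentile. Probes bind with different strength, so levels of different probes are not set against each other. The well-above-background mark of the scanner software was given to 11785 to 12414 of the 15208 gene spots on the epidermal arrays and to 11091 to 11539 on the corneal arrays, and no gene spot was saturated. Pairs of arrays correlated at 0.996 to 0.998 within groups and 0.968 to 0.969 between them, across probes, which do not count as replicates. All 6 arrays lay on 1 slide and were read in 1 scan, with epidermal arrays in slide row 1 and corneal arrays in slide row 2, so row and kind of cell cannot be told apart. Precision is limited by there being 3 arrays a group.

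Few markers of the labelled cell types had a probe matched to a gene name. Here and below, a gene with a probe means a gene so matched. Of the 15008 gene probes 13691 stayed unnamed, so genes counted as lacking a probe may still be on the array. Of 8 basal keratinocyte markers 3 had one. KRT14 was well above background on 2 of 3 epidermal and 0 of 3 corneal arrays, KRT15 on 3 and 1, and TP63 on 0 of either. A list of 6 general epithelium markers had 3 with a probe. Among them the keratin KRT8 was well above background on all 6 arrays and was not called (0.11, adjusted p = 0.397). KRT19 was so on 0 of either group, and CLDN4 on 3 epidermal and 0 corneal arrays. Of 7 corneal epithelium markers, PAX6 and ALDH1A1 had a probe and were above background on all 6 arrays. ALDH1A1 was lower in corneal cells by a change of −4.84, while PAX6 changed by 0.30 (adjusted p = 0.0132), a call that ended without scaling of the arrays (adjusted p = 0.236). Of 12 fibroblast and mesenchymal markers, VIM among them, 9 had a probe, all 9 above background on every epidermal array and 8 on every corneal array. In corneal cells 5 of the 9 were lower, 1 was higher and 3 (VIM, COL1A2 and DCN) were not called. DCN is given by its brighter probe, and its 2 probes ran from −0.44 to 0.07. COL3A1, a fibrillar collagen, was lower by a change of −4.51 (adjusted p = 1.46e-07; both of its probes between −5.33 and −4.51), and POSTN, periostin, was above background on no corneal array. COL1A1 (−0.55), PDGFRA (−0.52) and LUM (−0.40) were lower by less, while FN1, fibronectin, was higher by 0.95 (adjusted p = 7.13e-06). The 2 probes of COL1A1 ran from −0.55 to −0.24. The unscaled processed intensities of the 9 summed to between 1073000 and 1160000 on the epidermal arrays and between 848300 and 860400 on the corneal arrays. Without VIM the sums were 670700 to 752100 and 499800 to 509000. Without scaling the median change of all probes was itself −0.22, and such sums are carried by the brightest probes. They therefore do not measure a general fall of these markers. Several of these markers thus differed between the same arrays as MYLK, CNN1 and DES. The part of these markers in the results below was not tested. All 3 smooth muscle markers with a probe, MYLK, CNN1 and DES, are members themselves. The cells are called epidermal and corneal after their labels, and the markers above do not establish that either group is epithelial.

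Each member probe is 60 bases long and was printed as 1 spot per array. The probes of MYLK, TPM1 and VIM, genes with the largest fall, a small rise and no call as reported, are given here 5′ to 3′ as the array files list them. Capitals mark the stretch that both VIM probes share. The MYLK probes share no stretch longer than 7 bases, and they and TPM1 are in lower case throughout.
MYLK A_70_P016046: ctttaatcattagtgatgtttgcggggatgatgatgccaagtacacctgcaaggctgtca
MYLK A_70_P057151: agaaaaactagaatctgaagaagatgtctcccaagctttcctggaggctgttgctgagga
TPM1 A_70_P024291: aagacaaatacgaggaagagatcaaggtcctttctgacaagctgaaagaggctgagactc
VIM A_70_P041691: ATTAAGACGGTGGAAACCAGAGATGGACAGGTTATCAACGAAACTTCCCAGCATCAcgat
VIM A_70_P041692: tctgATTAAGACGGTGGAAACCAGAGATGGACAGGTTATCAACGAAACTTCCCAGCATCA

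The VIM probes overlap in 56 of their 60 bases and so read the same site, whereas the MYLK probes have different sequences. Which transcripts of the MYLK gene each probe reads was not checked. Their values therefore do not single out transcripts that encode the kinase. GC content ran from 36.7% for CNN1 to 55% for TAGLN2, against a median of 43.3% over all probes. The 3 probes for CNN1, DES and MYL11 hold AATAAA, the letters of the usual polyadenylation signal, on the listed strand. Over the array 5.63% of probes hold these letters on that strand and 3.7% on the other, where no member probe had them. A match describes the probe's letters only. The files give no genome position for these probes, so none is printed.

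The comparison asks which of these transcripts differ between corneal and epidermal cells. In corneal cells MYLK was 9.10-fold and 9.83-fold lower by its 2 probes. CNN1 and DES were each a little over 2-fold higher as reported. Under some alternatives they were below 2-fold. On the log2 scale CNN1 changed by 0.91 without scaling of the arrays, and DES by 0.51 with normexp background correction. TPM1 was 1.39-fold higher, and TPM3 and TAGLN2 had smaller rises that depended on the processing. VIM, MYL11 and CNN3 did not pass the test. All 11 member probes passed the detection filter, a well-above-background mark on 3 or more arrays.

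Tested with limma over 11740 probes with Benjamini-Hochberg adjustment, 7 of the 11 member probes were called at an adjusted p under 0.05, which is 63.6%, against 59.8% of all probes tested. The members' share of calls was thus close to that of the array as a whole. By direction, 5 member probes (45.5%) were higher and 2 (18.2%) lower, where 26.4% and 33.4% of all probes were. The arrays of the groups did not overlap for 7 member probes (63.6%), beside 67.9% of all probes. Calls of at least 2-fold were made for 4 of the 11 (36.4%), 2 of them probes of MYLK, beside 7.75% of all probes. The other 2, CNN1 and DES, did not reach 2-fold under every alternative. Members were chosen with earlier results of these data known, so this share is no test of the set. The median change of the members was −0.002 and that of all probes −0.05. Their median size of change was 0.30, against 0.25 over all probes.

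**Figure D1:**
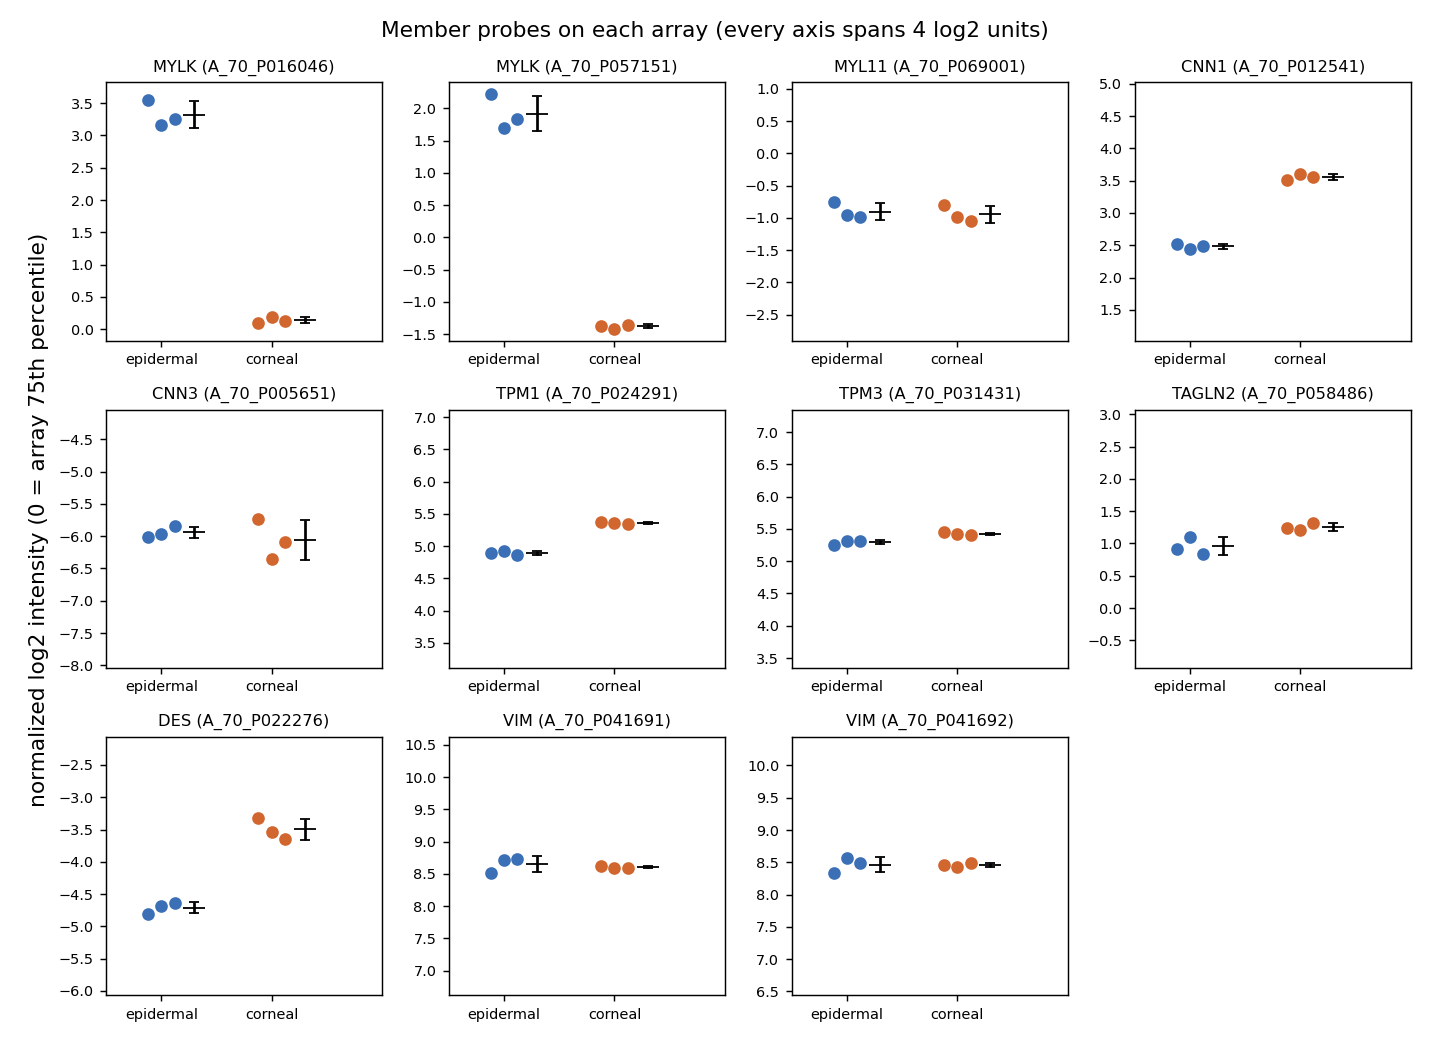
Normalized log2 intensity of each member probe on each array, 0 being the array's 75th percentile, with 1 point per array (epidermal left, corneal right, replicates 1 to 3 from left to right) and the mean ± SD of 3 arrays beside them. Every axis spans 4 log2 units, and the groups lie far apart for both MYLK probes and clearly apart for CNN1 and DES, while those of VIM, MYL11 and CNN3 overlap.

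MYLK had the largest change among the members. Its probe A_70_P016046 stood at 3.56, 3.16 and 3.25 in epidermal replicates 1, 2 and 3 and at 0.09, 0.19 and 0.13 in corneal replicates 1, 2 and 3. Every epidermal array lay far above every corneal array. On the linear scale, before scaling between arrays, the processed intensities were 12913, 8578 and 9287 in epidermal and 962, 1031 and 973 in corneal cells. Means were 3.32 ± 0.21 on the epidermal and 0.14 ± 0.05 on the corneal arrays (SD, n = 3). They differed by −3.19 ± 0.11 (SE; adjusted p = 6.45e-06). This corresponds to a level 9.10-fold lower in corneal cells, and by size of change the probe ranked 125 of the 11740 tested.

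The second MYLK probe, A_70_P057151, stood at 2.22, 1.70 and 1.84 in the epidermal and at −1.37, −1.41 and −1.35 in the corneal replicates. The groups again lay far apart, and epidermal replicate 1 was the highest array for both probes. The change was −3.30 ± 0.13 (SE; adjusted p = 1.33e-05), or 9.83-fold lower, rank 115. Both probes therefore gave the same direction, and their changes differed by 0.11. Within arrays the first minus the second probe was 1.34, 1.46 and 1.42 in the epidermal and 1.46, 1.60 and 1.48 in the corneal replicates. The difference between the 2 changes was not tested. With any 1 array left out the change lay between −3.27 and −3.07 for the first probe and between −3.41 and −3.15 for the second. The labels give no composition of the cultures, and in such bulk samples fewer cells of a type and less RNA per cell cannot be told apart.

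MYL11, the regulatory light chain of fast skeletal muscle myosin, did not pass. It stood at −0.75, −0.96 and −0.99 in the epidermal and −0.79, −0.99 and −1.05 in the corneal replicates, and the groups overlapped. In both groups replicate 1 was the highest array. The change was −0.04 ± 0.10 (SE; adjusted p = 0.716), with a 95% interval from −0.28 to 0.20. Markers of skeletal muscle were mostly dim. Of 13 such markers 6 had a probe, MYL11 among them. MB, myoglobin, was well above background on 0 of 6 arrays, and MYF5, a factor of muscle precursors, on 0 epidermal and 2 corneal arrays. MYOD1, a master factor of muscle, was above background on all 6 with a change of −0.20 (adjusted p = 0.138), and its 2 probes ran from −0.64 to −0.20. MYOG, myogenin, on 3 epidermal arrays and 1 corneal array, changed by −0.35 (adjusted p = 0.00305). The unscaled intensities of the 5 without MYL11 summed to 80.8 to 87.5 on the epidermal and 66.1 to 100 on the corneal arrays. These ranges overlap. MYL11 alone read 489 to 654 and 428 to 521. Probes bind with different strength, so this does not rank MYL11 against the other transcripts.

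CNN1, the calponin of smooth muscle, was higher in corneal cells. It stood at 2.52, 2.44 and 2.48 in the epidermal and at 3.51, 3.60 and 3.56 in the corneal replicates, so every corneal array exceeded every epidermal array. The processed intensities were 6322, 5225 and 5448 against 10293, 10995 and 10487. The change was 1.07 ± 0.04 (SE; adjusted p = 8.66e-06), a 2.11-fold rise. CNN3, a calponin of non-muscle cells, was dim, with processed intensities between 11.1 and 17.0 and 2 of 3 corneal arrays above background. Its values were −6.01, −5.97 and −5.85 in epidermal and −5.73, −6.35 and −6.09 in corneal cells. The corneal arrays spanned both sides of the epidermal ones, and the change of −0.11 ± 0.16 (SE; adjusted p = 0.571) did not pass, with a 95% interval from −0.51 to 0.28.

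The 2 tropomyosins with a probe were bright in both groups. TPM1 stood at 4.89, 4.92 and 4.86 in the epidermal and at 5.37, 5.37 and 5.34 in the corneal replicates. The groups did not overlap, and the SD of each was 0.03 or less. The change was 0.47 ± 0.03 (SE; adjusted p = 7.55e-05), a 1.39-fold rise, and 0.30 without scaling (adjusted p = 0.0113). TPM3 stood at 5.26, 5.31 and 5.31 against 5.44, 5.42 and 5.41. Its rise of 0.13 ± 0.03 (SE; adjusted p = 0.0115) was small and turned to −0.03 (adjusted p = 0.689) without scaling of the arrays.

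TAGLN2, a widely expressed actin-binding transgelin, stood at 0.92, 1.11 and 0.84 in the epidermal and at 1.24, 1.20 and 1.32 in the corneal replicates. The lowest corneal array lay just above the highest epidermal one. The change was 0.30 ± 0.08 (SE; adjusted p = 0.0196). The call ended without epidermal replicate 1, epidermal replicate 3 or corneal replicate 3 (adjusted p = 0.06, 0.0508 and 0.0609), and without scaling (0.13, adjusted p = 0.231).

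DES, desmin, was higher in corneal cells. It stood at −4.80, −4.68 and −4.64 in the epidermal and at −3.32, −3.54 and −3.64 in the corneal replicates. All 6 values were well above background but dim, with processed intensities of 37.5 to 39.3 in epidermal and 71.2 to 90.5 in corneal cells. The groups did not overlap, and the change was 1.21 ± 0.09 (SE; adjusted p = 0.000158), a 2.31-fold rise. With normexp background correction the rise was 0.51 (adjusted p = 9.74e-05), a setting whose added offset of 50, larger than the epidermal intensities themselves, makes changes of dim probes smaller by construction. Its rise was the largest of the members as reported, but with normexp that of CNN1 (1.08) was larger.

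VIM, vimentin, was very bright in both groups and its values overlapped. Probe A_70_P041691 stood at 8.51, 8.72 and 8.74 in the epidermal and at 8.62, 8.59 and 8.60 in the corneal replicates. Its change was −0.05 ± 0.07 (SE; adjusted p = 0.511), with a 95% interval from −0.22 to 0.11. The overlapping probe A_70_P041692 stood at 8.33, 8.56 and 8.49 against 8.45, 8.43 and 8.50. It changed by −0.002 ± 0.06 (SE; adjusted p = 0.98), with an interval from −0.16 to 0.16. Epidermal replicate 1 was the lowest array for both probes. Without it, the first probe passed as lower (−0.12, adjusted p = 0.0225). Before scaling, the intensities of the first probe were 401831, 403846 and 415329 in epidermal and 355631, 348488 and 343666 in corneal cells, which do not overlap. Without scaling both probes passed as lower, at −0.22 and −0.17. On all 6 arrays the spots of VIM, TPM1 and TPM3 were read from the scanner's low-gain pass and scaled up, and no member spot was saturated.

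**Figure D2:**
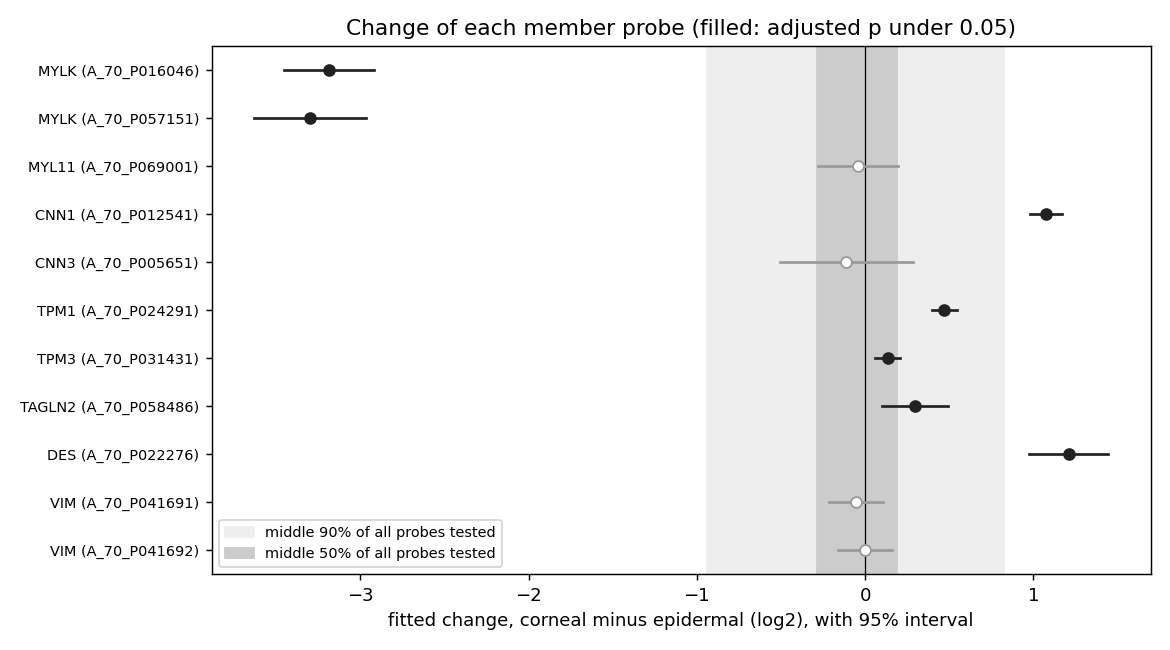
Fitted change of each member probe, corneal minus epidermal on the log2 scale, with its 95% interval; filled points passed at an adjusted p under 0.05. The shaded bands hold the middle 50% (−0.29 to 0.19) and middle 90% (−0.94 to 0.83) of all 11740 probes tested, and the probes of MYLK, CNN1 and DES lie outside the wider one.

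How small changes read depends on the scaling. Without it the median change of all probes was −0.22, against −0.05 with the 75th percentile, and higher calls made up 22.5% of all calls instead of 44.1%. Relative to that shifted median, the unscaled changes were 0.18 for TPM3 and 0.35 for TAGLN2. They were −0.005 and 0.05 for the VIM probes, 0.52 for TPM1, 1.12 for CNN1, 1.26 for DES and −3.14 and −3.25 for the MYLK probes. Under each of the alternatives tried, MYLK fell and CNN1, TPM1 and DES rose with an adjusted p under 0.05.

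**Figure D3:**
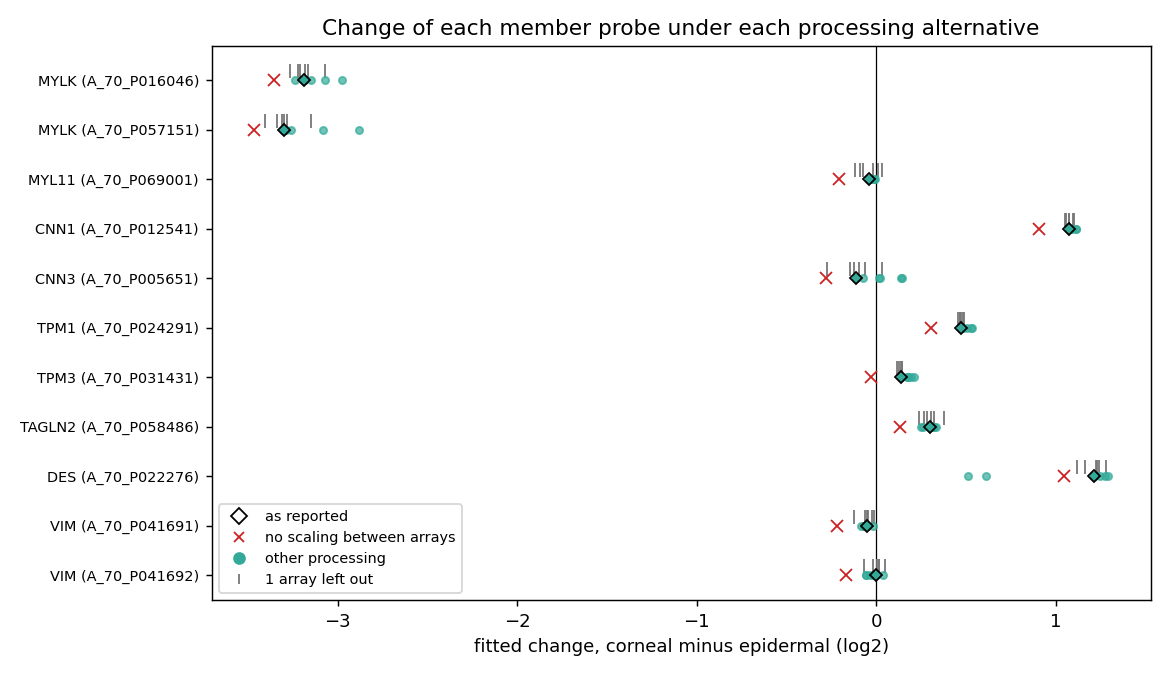
Fitted change of each member probe (log2, corneal minus epidermal) as reported (diamond), without scaling between arrays (cross), under other processing (dots) and with 1 array left out (ticks). The cross for TPM3 lies at −0.03, on the other side of 0 from its reported 0.13, and the 2 dots of DES near 0.5 and 0.6 are the normexp settings.

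Ratios of 2 probes on the same array do not move with a constant scaling of that array. Of 7 pairs planned, 4 had both genes measured. TPM1 over CNN1 and VIM over DES each set a spot read from the low-gain pass against a spot that was not. These 2 ratios could also move with the factor between the passes, which was not tested. The log2 ratio of MYLK to CNN1 was 1.03, 0.72 and 0.77 in the epidermal and −3.42, −3.42 and −3.43 in the corneal replicates. The corneal arrays were nearly equal, and the ratio changed by −4.26. TPM1 over CNN1 went from 2.41 ± 0.06 to 1.80 ± 0.05 (SD, n = 3), a change of −0.60, so CNN1 rose more than TPM1. TPM1 over TPM3 went from −0.40 ± 0.05 to −0.07 ± 0.01, a change of 0.34. Whether TPM3 itself rose depended on the scaling. VIM over DES went from 13.4 ± 0.04 to 12.1 ± 0.15, a change of −1.26. In all 4 pairs the groups did not overlap, and the exact two-sided permutation p was 0.1 (adjusted over the pairs 0.1), the smallest that 3 against 3 can give. With normexp the VIM to DES change was −0.58, and the part of the offset in this was not tested. The size of a ratio depends on how each probe binds and says nothing of which transcript is more abundant.

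**Figure D4:**
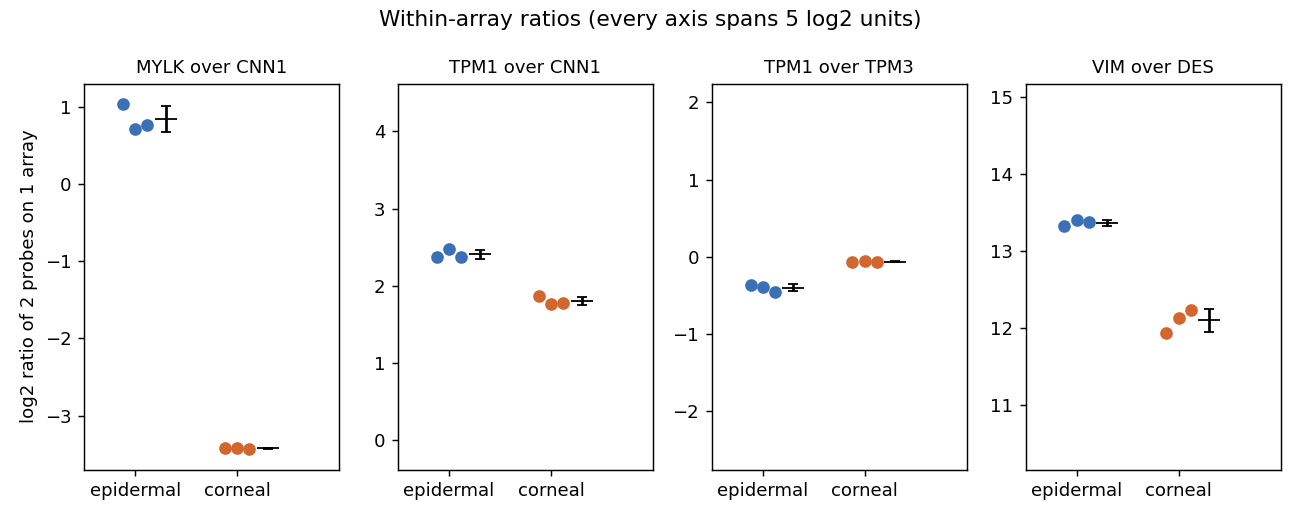
Log2 ratio of 2 member probes on each array, epidermal left and corneal right, with the mean ± SD of 3 arrays; every axis spans 5 log2 units. MYLK over CNN1 lay between 0.72 and 1.03 on the epidermal arrays and at about −3.42 on the corneal arrays, and the groups were apart in all 4 ratios.

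Other genes of contraction and of intermediate filaments were followed by a list of 104 genes, of which 23 had a probe and 20 were tested. In corneal cells 9 were higher, 5 lower and 6 not called, so 70% were called where 59.8% of all probes were. The list too was chosen with earlier results of these data known. Their median change was 0.10. Without scaling of the arrays 10 of the 20 were called instead of 14.

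Both actins with a named probe rose. ACTG1, cytoplasmic gamma actin, changed by 0.58 ± 0.05 (SE; adjusted p = 0.000228) and ACTB, cytoplasmic beta actin, by 0.33 ± 0.08 (adjusted p = 0.012), with its 3 probes between 0.13 and 0.33; without scaling ACTB no longer passed (0.16, adjusted p = 0.0506). MYL6, the essential light chain of smooth muscle and non-muscle myosin, averaged 5.44 ± 0.09 on the epidermal and 6.12 ± 0.03 on the corneal arrays (SD, n = 3). Its rise was 0.68 ± 0.05 (SE; adjusted p = 0.000135).

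Among 5 regulators of myosin phosphorylation, the counterparts of MYLK, 1 rose, 1 fell and 3 were not called. RHOA, a GTPase that promotes contraction, rose by 0.34 ± 0.04 (SE; adjusted p = 0.000514), but its 3 probes ran from −0.03 to 0.34 and the call ended without scaling (adjusted p = 0.088). PPP1CC, a catalytic subunit of protein phosphatase 1, fell by 0.35 on the log2 scale (adjusted p = 0.000225). PPP1R12A, which targets that phosphatase to myosin, changed by 0.30 (adjusted p = 0.0926), with its 4 probes between 0.10 and 0.32. RHOB, a relative of RHOA, changed by −0.38 (adjusted p = 0.305). The RHOB value was −0.06 without corneal replicate 1 and −0.59 without corneal replicate 3, and PPP1R12A passed as higher with normexp (0.26, adjusted p = 0.0344). CALM2, one of the genes for calmodulin, the activator of MYLK, changed by −0.02 (adjusted p = 0.55). TNNC2, a troponin of fast skeletal muscle, was the only troponin with a named probe. It changed by −0.35 (adjusted p = 0.0792), with its 2 probes between −0.49 and −0.35. It passed as lower without scaling (−0.52, adjusted p = 0.0196) and without corneal replicate 1 (−0.19, adjusted p = 0.0316), and was −0.09 with normexp.

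Of 5 thin filament and cross-linking proteins 3 rose and 1 fell. ACTN4, a non-muscle alpha-actinin that bundles actin, averaged 2.46 ± 0.01 on the epidermal and 3.54 ± 0.05 on the corneal arrays (SD, n = 3). It rose by 1.08 ± 0.03 (SE; adjusted p = 5.13e-06). FLNA, the cross-linker filamin A, rose by 0.32 (adjusted p = 0.0155) and did not pass without scaling (adjusted p = 0.321). CFL1, the actin-severing cofilin, changed by 0.14 (adjusted p = 0.0279). Its direction turned to −0.02 without scaling, and its call ended without epidermal replicate 3 or without any 1 of the corneal replicates (adjusted p from 0.0587 to 0.0787). NEB, nebulin, a thin filament protein of skeletal muscle, fell by 0.91 on the log2 scale (adjusted p = 0.00136), and with normexp by 0.21 (adjusted p = 0.00429).

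Of 6 intermediate filament genes and linkers 2 rose and 3 fell. CRYAB, a small heat shock protein known to bind desmin filaments, had the largest change of the list. Its mean was −0.17 ± 0.05 on the epidermal and 2.00 ± 0.04 on the corneal arrays (SD, n = 3), and the rise 2.17 ± 0.04 (SE; adjusted p = 8.24e-07). LMNA, which encodes lamins A and C of the nuclear lamina, rose by 0.24 (adjusted p = 0.00482) and did not pass without scaling (adjusted p = 0.316). LMNB1, lamin B1, and PLEC, plectin, which links intermediate filaments to other structures, both fell by 0.42 on the log2 scale (adjusted p = 0.00114 and 0.00441). DST, dystonin, a linker of the same family, changed by −0.52 (adjusted p = 0.022). That call ended without epidermal replicate 2 or 3 (adjusted p = 0.0683 and 0.0711). With normexp the change was −0.19 for DST and −0.24 for LMNB1, both still called.

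**Figure D5:**
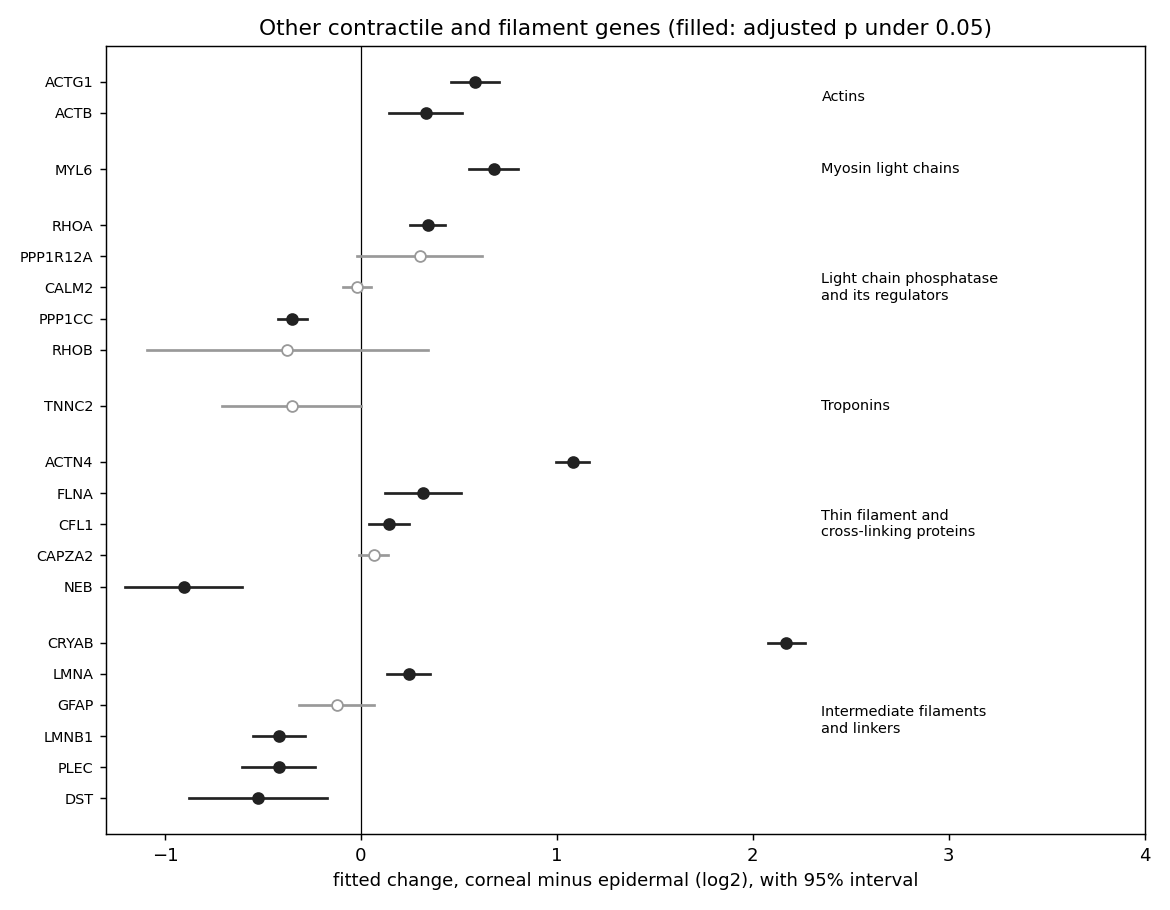
Fitted change (log2, corneal minus epidermal) with its 95% interval for the 20 other contractile and filament genes tested, by group; filled points passed at an adjusted p under 0.05. CRYAB at 2.17 and ACTN4 at 1.08 lie farthest to the right and NEB at −0.91 farthest to the left.

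Among 536 other named genes above background on all 6 arrays, the nearest patterns over the arrays were found by the Euclidean distance of centred values. Those nearest to MYLK were OXT (distance 0.29) and ADAMTS1 (0.32), with changes of −3.05 and −3.21. CNN1 was nearest to ISG15 (0.11) and to ACTN4 (0.15), and TFAP2A (0.20) was among the genes nearest to DES. TPM1 was nearest to ARL2 (0.07) and DTNBP1 (0.08), VIM to RPL6 (0.08) and ETS2 (0.09), and MYL11 to SRSF3 (0.12). With 6 arrays in 2 groups such distances mostly reflect the size of the difference between the groups.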

How the data were processed

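Per the file headers, the deposited intensities were extracted with Agilent Feature Extraction (version 10.7 per the submitters' processing notes), with background subtracted, detrending within the array and surrogate values for dim spots. The authors' deposited table of log2 values served as an alternative; how it was made was not stated in the labels or headers. Its columns share a median of 7.23, differ by at most 0.0202 at equal rank, and correlate at 0.999 or above with the log2 signal of their own arrays. They thus look like quantile-normalized single-channel values not centred by gene.

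Control spots were not used. Outlier flags removed values of 41 probes, none of them a member. Log2 processed signals minus each array's 75th percentile were tested over all 6 arrays with limma 3.58.1 in R 4.3.3 (lmFit, eBayes, Benjamini-Hochberg, threshold 0.05), on the 11740 of 15008 probes well above background on at least 3 arrays. The fit was tested on simulated data. Fold changes are 2 to the power of the fitted change.

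Names came from the arrays' columns, matched to sheep RefSeq genes (ARS-UI_Ramb_v3.0) by accession for 737 probes, symbol for 516 and synonym for 18, and for 46 by description or older name. The other 13691 stayed unnamed. List genes were represented by their tested probe with the highest mean. Named were all members, up to 3 called genes per list group and direction, markers of the labelled cells, and the 2 nearest patterns of each main gene, some of which are not reported here. Further markers and list genes are given as context. Members and lists were chosen with earlier results of these data known.

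Alternatives were other scalings, normexp, the authors' table, other filters, 1 probe per gene, a replicate block and leaving out each array.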

Additional observations from a re-analysis of the deposited data

How the results depend on the processing

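Counts of calls stayed within 1.5 times: between 5 and 7 member probes, 10 and 15 list genes, and 6186 and 7401 of all probes were called over the alternatives. Both MYLK probes, CNN1, TPM1, DES and the 4 ratios kept their direction and their side of the threshold, although the ratios' permutation p cannot pass it. Without scaling, TPM3 turned to −0.033 and TAGLN2 (0.13) lost its call, while the VIM probes gained one (−0.22 and −0.17). CNN3, at the limit of detection, turned to 0.14 under quantile normalization and in the authors' values (0.14), and to 0.016 and 0.019 with normexp without and with removal of 7 spots of extreme local background. The VIM probe A_70_P041692 turned to 0.035 with median centring. With 1 array left out, the changes ran from −0.067 to 0.047 for that probe, −0.12 to −0.013 for the other VIM probe, −0.12 to 0.033 for MYL11, −0.28 to 0.034 for CNN3 and 0.24 to 0.37 for TAGLN2. Among the other named genes, KRT15 turned to 0.15 under quantile normalization and in the authors' values, CALM2 to 0.016 with median centring, and CAPZA2 and CFL1 to −0.10 and −0.023 without scaling. The cause of these shifts was not tested. The labels give same-numbered replicates only a number in common. Their deviations from the group means correlated at 0.017, −0.029 and 0.038, which cannot decide whether they share an animal or a preparation. With the replicate number as a block, 5 member probes and 6279 probes in all were called, and TPM3 (0.13, adjusted p = 0.0527), TAGLN2 (0.30, adjusted p = 0.0601) and DST (−0.52, adjusted p = 0.0575) did not pass.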

Other observations

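A pair of further contractile probes could not be tied to 1 gene and were singled out after their values were seen. The probe described as the major regulatory light chain of smooth muscle myosin, the substrate of MYLK, stood at 6.49, 6.50 and 6.54 in the epidermal and at 7.14, 7.11 and 7.16 in the corneal replicates. Its change was 0.63 ± 0.03 (SE; adjusted p = 2.46e-05). MYLK and this probe thus moved in opposite directions between the same arrays. The description does not settle which of several near-identical light chain genes the probe reads. The probe described as a non-muscle myosin heavy chain changed by −0.15 ± 0.08 (SE; adjusted p = 0.156), and passed as lower without scaling (−0.32, adjusted p = 0.0387) and without epidermal replicate 2 (−0.23, adjusted p = 0.0307).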
